A study of Mus musculus with 2 samples.

Results

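Accessible chromatin was described at 10 genes of the high-affinity IgE receptor and the signalling steps next to it, in mouse bone marrow-derived mast cells, the tissue granulocytes that bind IgE, grown from marrow in interleukin 3. The genes were Fcer1a, Ms4a2, Fcer1g, Lyn, Syk, Fyn, Lat, Lat2, Lcp2 and Btk. The data were 2 lists of ATAC-seq peaks, an assay that reads where the enzyme Tn5 can cut into open DNA. One list came from mice in which DNMT3A, a de novo DNA methyltransferase, was deleted (the DNMT3A-KO culture), and the other from wild-type littermates. All mice were female and aged 3 to 4 weeks, and both cultures had grown for 4 weeks before analysis. Each genotype was 1 library of 1 culture with no replicate, so nothing below could be compared with the variation among mice, and intervals cover counting error only. The labels state neither the deleted allele nor whether a culture pooled several mice. Per the labels, over 95% of cells carried Kit and the receptor alpha chain at the surface.

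A peak belonged to a gene when that gene's interval was the nearest of all protein-coding genes (mm10) and lay within 100 kb. Peaks of both lists that overlapped by at least 1 bp were joined into a region. A region was shared when both lists had a peak in it, and knockout-only or wild-type-only otherwise. The rule gave 30 of 23364 regions, with 24 of 19684 DNMT3A-KO peaks and 21 of 17170 wild-type peaks. Of the 10 genes, 10 had a region in the DNMT3A-KO list and 9 in the wild-type list, where Lyn had none. Over all 21631 protein-coding genes, 49.6% had a region in the DNMT3A-KO list, 46.4% in the wild-type list and 42.4% in both. A region in the DNMT3A-KO list alone, as at Lyn, was found at 7.26% of genes, and in the wild-type list alone at 4.04%.

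The receptor consists of an alpha chain, encoded by Fcer1a, which binds IgE, a beta chain, encoded by Ms4a2, and a gamma chain, encoded by Fcer1g. The beta and gamma chains carry tyrosine motifs (ITAMs) inside the cell. When antigen clusters the bound IgE, the kinase LYN phosphorylates these motifs, the kinase SYK docks on them and phosphorylates the adaptors LAT and SLP-76 (Lcp2), and calcium release and degranulation follow. FYN, another kinase of the Src family, starts a parallel branch, BTK acts on phospholipase C gamma, and NTAL (Lat2) is an adaptor related to LAT.

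Lyn had peaks in DNMT3A-KO alone. Over start sites, Lat had a peak in DNMT3A-KO alone and Fcer1a in wild type alone, and Lcp2 had a wild-type-only peak just after its start. Further unshared regions lay at Syk, Fyn, Lat, Lat2 and Lcp2. The 30 regions comprised 15 shared, 9 knockout-only and 6 wild-type-only ones. The shares over the genome were 55.1% for shared, 28.0% for knockout-only and 16.9% for wild-type-only regions. Knockout-only regions made up 60% of the 15 unshared regions (exact binomial 95% interval 32.3 to 83.7), beside 62.3% over all unshared regions, so the share at these genes lay near the background. More knockout-only than wild-type-only regions were found at 3 genes (Lyn, Lat2 and Lcp2), and the opposite at 2 genes (Fcer1a and Syk). Over all 11606 genes with a region these balances were found at 32.2% and 17.5%. Fyn and Lat had 1 of each kind, and Ms4a2, Fcer1g and Btk had shared regions only.

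**Figure D1:**
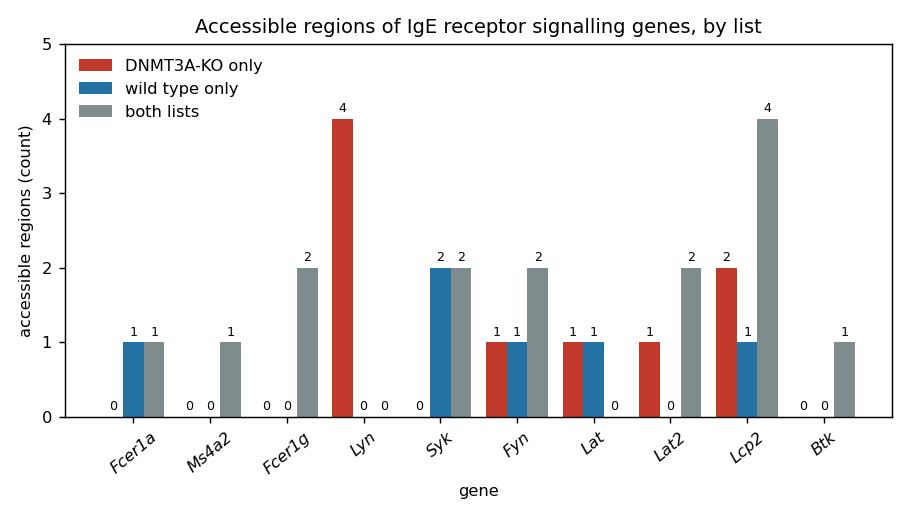
Number of accessible regions (y axis) of each gene (x axis) found in the DNMT3A-KO list only (red), in the wild-type list only (blue) and in both (grey). Lyn has 4 knockout-only regions and no other, Syk has 2 wild-type-only regions, and Lcp2 has the most shared regions, 4.

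Start sites came first, since a peak there marks an open promoter. RefSeq promoter windows (mm10, 250 bases before to 50 after a start) were at hand for 8 of the 10 genes, 9 windows in all, with 2 for Syk. Lyn and Lat2 had none in the table. A peak fell in 6 of the 9 windows. These windows are printed 5′ to 3′ along the gene's strand, because they hold the sites at which the lists agreed or parted. Capitals mark bases under a peak of either list. The Fcer1a window (chr1:173227180-173227479, minus strand) held a wild-type peak alone. The Lat window (chr7:126369519-126369818, minus strand) held a DNMT3A-KO peak alone. The windows of Ms4a2 (chr19:11623670-11623969, minus strand), Fcer1g (chr1:171234300-171234599, minus strand), Fyn (chr10:39369549-39369848, plus strand) and the inner start of Syk (chr13:52596632-52596931, plus strand) held a peak of both.
Fcer1a: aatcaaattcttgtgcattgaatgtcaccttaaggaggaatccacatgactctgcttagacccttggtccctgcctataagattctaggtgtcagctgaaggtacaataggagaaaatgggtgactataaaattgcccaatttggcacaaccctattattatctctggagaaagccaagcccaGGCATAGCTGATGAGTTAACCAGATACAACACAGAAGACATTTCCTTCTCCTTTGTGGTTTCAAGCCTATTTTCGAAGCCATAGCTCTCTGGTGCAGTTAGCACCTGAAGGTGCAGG
Lat: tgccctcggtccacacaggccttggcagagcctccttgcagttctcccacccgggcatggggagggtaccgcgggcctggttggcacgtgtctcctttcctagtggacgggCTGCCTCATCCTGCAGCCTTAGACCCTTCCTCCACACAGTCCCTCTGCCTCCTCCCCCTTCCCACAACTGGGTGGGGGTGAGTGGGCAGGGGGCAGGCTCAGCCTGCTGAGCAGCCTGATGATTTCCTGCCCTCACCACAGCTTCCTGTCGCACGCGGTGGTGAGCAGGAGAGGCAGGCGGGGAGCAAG
Ms4a2: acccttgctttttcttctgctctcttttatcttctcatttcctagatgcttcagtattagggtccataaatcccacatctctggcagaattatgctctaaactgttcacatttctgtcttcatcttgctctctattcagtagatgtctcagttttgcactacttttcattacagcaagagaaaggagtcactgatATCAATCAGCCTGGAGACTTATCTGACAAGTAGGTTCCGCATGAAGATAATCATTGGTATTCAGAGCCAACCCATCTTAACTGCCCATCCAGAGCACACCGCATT
Fcer1g: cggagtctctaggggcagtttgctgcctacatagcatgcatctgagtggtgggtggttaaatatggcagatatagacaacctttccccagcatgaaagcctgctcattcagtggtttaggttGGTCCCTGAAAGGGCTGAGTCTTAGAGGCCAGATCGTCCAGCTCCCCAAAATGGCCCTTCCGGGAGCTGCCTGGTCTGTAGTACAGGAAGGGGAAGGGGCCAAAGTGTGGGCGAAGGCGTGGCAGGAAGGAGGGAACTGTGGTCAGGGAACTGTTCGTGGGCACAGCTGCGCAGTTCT
Fyn: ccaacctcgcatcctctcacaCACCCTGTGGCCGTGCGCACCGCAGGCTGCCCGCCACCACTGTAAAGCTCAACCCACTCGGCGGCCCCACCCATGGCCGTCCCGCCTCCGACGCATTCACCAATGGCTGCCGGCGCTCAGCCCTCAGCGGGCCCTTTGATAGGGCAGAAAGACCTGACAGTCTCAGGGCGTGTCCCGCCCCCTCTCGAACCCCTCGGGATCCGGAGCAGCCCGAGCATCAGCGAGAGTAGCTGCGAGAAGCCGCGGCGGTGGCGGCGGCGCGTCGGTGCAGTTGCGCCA
Syk: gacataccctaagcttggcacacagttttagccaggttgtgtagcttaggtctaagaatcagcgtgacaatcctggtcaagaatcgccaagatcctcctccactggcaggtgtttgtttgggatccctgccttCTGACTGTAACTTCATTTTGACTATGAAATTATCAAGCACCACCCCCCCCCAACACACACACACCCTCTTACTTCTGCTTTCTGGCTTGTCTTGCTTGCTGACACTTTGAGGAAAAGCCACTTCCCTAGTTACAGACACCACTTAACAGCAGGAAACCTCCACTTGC

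Over all 21045 promoter windows of protein-coding genes, 30.0% held a DNMT3A-KO peak and 28.2% a wild-type peak. A peak of both lists was found in 24.9%, of the DNMT3A-KO list alone in 5.08% and of the wild-type list alone in 3.23%. Of the 6995 windows with a peak, 5246 had one in both lists, 1069 in DNMT3A-KO alone and 680 in wild type alone. Among windows with a peak, one in 1 list only, as at Lat and Fcer1a, was thus a minority pattern but not a rare one. The upstream Syk window (chr13:52583187-52583486, plus strand), the Lcp2 window (chr11:34046678-34046977, plus strand) and the Btk window (chrX:134583091-134583390, minus strand) held no peak. At Lcp2 a wild-type-only peak began 123 bp after the start.

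**Figure D2:**
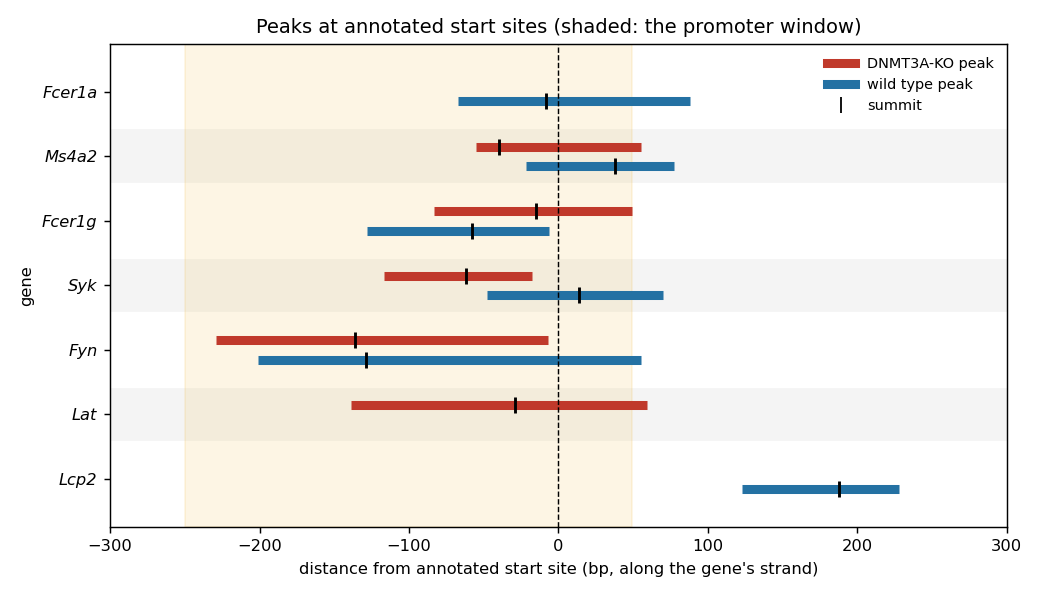
Extent of peaks (bars) and their summits (black ticks) in bp from the annotated start site (x axis, dashed line at 0), for DNMT3A-KO (red, upper bar) and wild type (blue, lower bar), with the inner start for Syk. The Fcer1a and Lcp2 rows have a wild-type bar only and the Lat row a DNMT3A-KO bar only; at Ms4a2 and Syk the DNMT3A-KO summit lies before the start and the wild-type summit after it.

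The printed promoters differed widely in CG dinucleotides, the sites at which DNMT3A methylates DNA. Fcer1a had 1 CG in 300 bases, and Ms4a2 and the inner Syk start had 2 each. Fcer1g had 7, Lat 10 and Fyn 31. Among all windows with a peak in either list, 0.586% had 2 or fewer CG, and among all windows 17.6%, so an open window this poor in CG was uncommon in these lists while 3 of the 6 open windows here were of that kind. The limit of 2 was set after the values were seen. Windows with a peak had a median of 23 CG and windows without one 6. The upstream Syk window had 31 CG, the Btk window 3 and the Lcp2 window 0, and none of these held a peak. Methylation was not measured.

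Short letter patterns of factors known in mast cells were counted on both strands of the 9 windows. GATAA, the core bound by GATA factors such as GATA2, was found in 4 windows (Fcer1a, Ms4a2, inner Syk and Lcp2), beside 22.5% of all windows. The Ms4a2 window held 3 matches. One began 10 bp before the start, inside the peaks of both lists. Another began 37 bp before the start, inside the DNMT3A-KO peak and outside the wild-type peak, and the remaining one lay under neither. At Fcer1a the match began 92 bp before the start, outside the wild-type peak. TGTGGT, a RUNX pattern, was found in the Fcer1a, Fcer1g and Lat windows, 3 of 9 beside 14.7% of all windows. GAGGAA, an ETS pattern of the PU.1 type, was found in 5 windows, beside 27.2%, and the shorter GGAA, which it contains, in 7, beside 95.7%. GGGCGG, the GC box, was found in the Fyn window alone, beside 46.7% of all windows. CANNTG, the E-box, was found in 8 windows, all but that of Ms4a2, beside 69.0%. Of its forms, CATGTG was found at Fcer1a (11.6% of all windows) and CACGTG at Lat (7.91%). CCAAT was found in 3 windows (38.5% of all) and TATAAA at Fcer1a alone (12.7%). TGANTCA, an AP-1 pattern, and TTCNNNGAA, a STAT pattern, were found in 0 of the 9 windows, beside 7.04% and 7.76% of all. A match describes the letters only.

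Among the receptor genes, the 2 peak lists differed at the promoter of the alpha chain gene. Fcer1a (chromosome 1, 173221269 to 173227232) had 2 regions. The one over its start (chr1:173227141-173227296, 156 bp wide) was wild-type-only, with a summit pileup of 12 overlapping reads, a fold enrichment of 8.33 and a −log10 q of 9.67 in the authors' list. Pileups here were computed from the authors' fold and −log10 p, and fold and −log10 q are the authors' own values, which rank peaks within their own list. The DNMT3A-KO list had no peak within 10.5 kb of it. A DNMT3A-KO peak with a like local background (within 10%) was listed from a pileup of 6 upward, and 14.2% of 2164 regions with a wild-type −log10 q within 10% of this one lacked a DNMT3A-KO peak. The absence of a peak therefore shows that the site fell short of the caller's threshold, not that it was closed. The site ranked 293 of 3952 wild-type-only regions by −log10 q. It was the only region that overlapped the gene.

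The other Fcer1a region lay 10.5 kb upstream of the gene (chr1:173237778-173237904) and was shared. The summit pileup there was 6 in DNMT3A-KO and 5 in wild type. Its summits lay 6 bp apart. The upstream site was thus found at the same place in both genotypes while the start site was listed in wild type only.

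The beta chain gene Ms4a2 (chromosome 19, 11615517 to 11623790) had a single region, over its start (chr19:11623642-11623774). It was shared, with a summit pileup of 6 in DNMT3A-KO and 7 in wild type. The DNMT3A-KO peak was 111 bp wide and the wild-type peak 100 bp. Their summits lay 78 bp apart, 40 bp before the start in DNMT3A-KO and 38 bp after it in wild type. Both peaks were weak: 11.6% of the DNMT3A-KO list and 32.6% of the wild-type list had a lower −log10 q.

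The gamma chain gene Fcer1g (chromosome 1, 171229572 to 171234349), whose product also serves other Fc receptors, had 2 shared regions. The inner one (chr1:171231941-171232233) had a summit pileup of 15 in DNMT3A-KO and 14 in wild type, and the peak was 226 bp wide in DNMT3A-KO and 280 bp in wild type. The one over the start (chr1:171234300-171234477) had a pileup of 10 in DNMT3A-KO and 14 in wild type, a ratio of 0.714 (interval 0.284 to 1.73). This was the lowest ratio among the 15 shared regions, and its interval spans 1.

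Among the kinase genes, Lyn stood out by having regions in the DNMT3A-KO list alone. Lyn (chromosome 4, 3678068 to 3791612) encodes the Src family kinase that first phosphorylates the receptor and that also restrains mast cells. It had 4 knockout-only regions, 0 shared and 0 wild-type-only. The strongest (chr4:3771786-3771949) lay inside the gene, 19.7 kb from its upper end, with a pileup of 10, a fold of 9.65 and a −log10 q of 13.3, rank 173 of 6541 knockout-only regions. Of 1881 regions with a DNMT3A-KO −log10 q within 10% of this one, 10.7% lacked a wild-type peak. The nearest wild-type peak was 63.7 kb away. Another (chr4:3678047-3678187) lay over the lower end of the gene, with a pileup of 7 and a −log10 q of 6.16, and 58.9% of regions of like strength lacked a wild-type peak.

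The remaining 2 Lyn regions lay outside the gene, 17.8 kb (chr4:3660037-3660220) and 28.7 kb (chr4:3649120-3649334) below it. The nearer had a pileup of 7, and 39.3% of regions of like strength were unshared. The farther had a pileup of 10, and 32.6% of regions of like strength were unshared. A wild-type peak assigned to another gene lay 1854 bp from the outermost one. Over all genes, 125 (0.578%) had 4 or more knockout-only regions. Of these 125 genes, 8 (0.0370% of all genes), Lyn included, had no wild-type region at all. Both limits are Lyn's own counts, so these shares do not measure how unusual Lyn is. Gene length was not taken into account, and the Lyn interval spans 113.5 kb. The 4 regions shared 1 library and 1 locus and are not independent. The count depends on the assignment: it was 2 when regions had to lie within 10 kb of the gene or when genes of all types competed for them, and 1 when only peaks with a −log10 q of 10 or more were kept. It was 4 with the limit at 5 and with equal numbers of peaks.

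Syk (chromosome 13, 52582610 to 52648792), which encodes the kinase that binds the phosphorylated receptor, had 2 shared and 2 wild-type-only regions. A shared region 9.90 kb below the gene (chr13:52572595-52572709) had a pileup of 8 in DNMT3A-KO and 7 in wild type. The shared region at the inner start (chr13:52596765-52596952) had a pileup of 7 in DNMT3A-KO and 8 in wild type. There the peaks overlapped by 31 bp only, with summits 76 bp apart. When a reciprocal overlap of 50% was required, this region split into a knockout-only and a wild-type-only one. The 2 wild-type-only regions lay inside the gene (chr13:52610484-52610585 and chr13:52624218-52624317) and were weak, with pileups of 5 and 4. Of regions of like strength, 49.0% and 52.1% lacked a DNMT3A-KO peak, so that these absences were common at this strength.

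Fyn (chromosome 10, 39369743 to 39565381), the kinase gene of the parallel branch, had the strongest start-site peak of the group. The shared region there (chr10:39369570-39369854) had a pileup of 24, a fold of 17.2 and a −log10 q of 29.0 in DNMT3A-KO, against a pileup of 14, a fold of 10.5 and a −log10 q of 13.8 in wild type. The pileup ratio was 1.71 (interval 0.852 to 3.58), so counting error alone does not separate the libraries. In its own list the DNMT3A-KO peak had a higher −log10 q than 97.5% of peaks and the wild-type peak than 78.3%. A second shared region inside the gene (chr10:39421344-39421476) had a pileup of 6 in DNMT3A-KO and 5 in wild type. One knockout-only region (chr10:39412893-39412992) had a pileup of 4 and was weaker than nearly all of its list. One wild-type-only region (chr10:39540487-39540628) had a pileup of 8 and a −log10 q of 8.99, and 17.3% of regions of like strength lacked a DNMT3A-KO peak.

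Btk (chromosome X, 134542334 to 134583628), a Tec family kinase gene, had 1 shared region, inside the gene (chrX:134564448-134564652). Its summit pileup was 7 in DNMT3A-KO and 8 in wild type. The DNMT3A-KO peak was 145 bp wide and the wild-type peak 172 bp, with summits 59 bp apart.

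**Figure D3:**
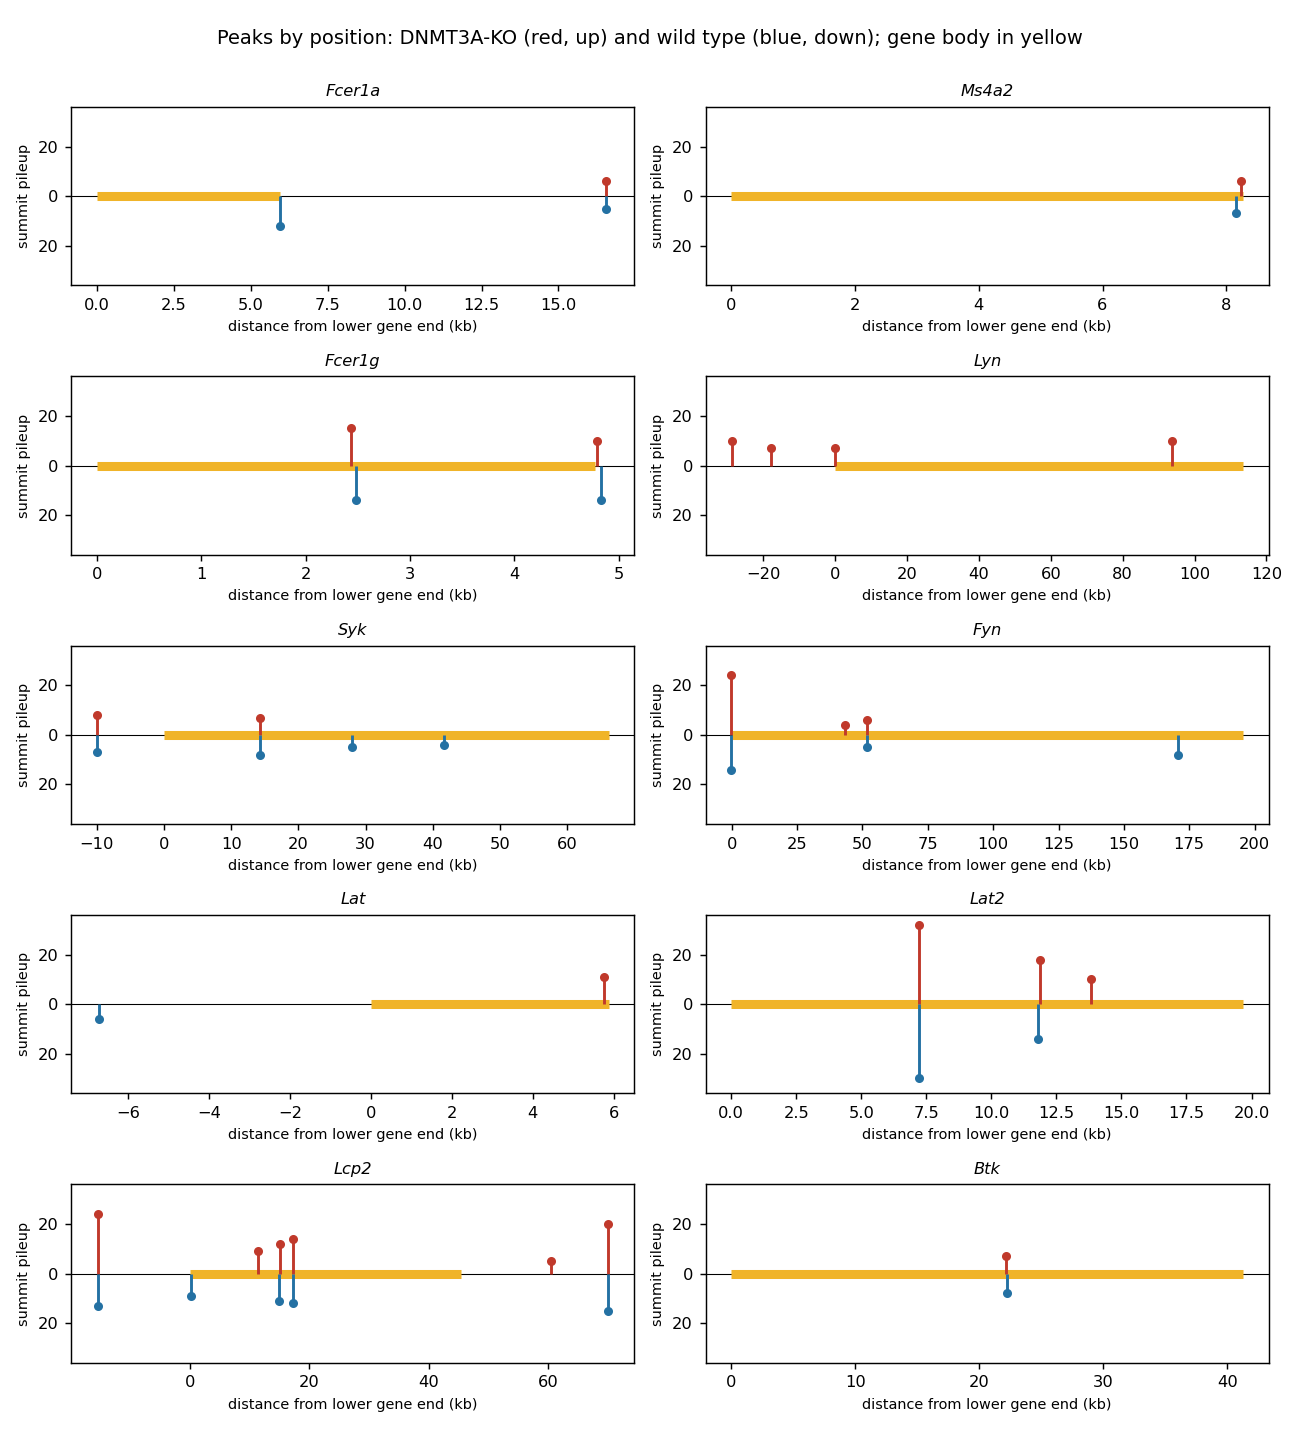
Summit pileup (y axis, overlapping reads) of every peak by its distance from the lower end of the gene's interval (x axis, kb; scale differs between panels), with DNMT3A-KO drawn upward in red and wild type downward in blue, and the gene body in yellow. Lyn has red stems only, Lat has 1 of each at different places, and at Lat2 and Lcp2 most red stems have a blue one opposite.

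Among the adaptor genes, Lat had no region in common between the lists. Lat (chromosome 7, 126363827 to 126369705) encodes the membrane scaffold on which phospholipase C gamma and its partners assemble. The knockout-only region covered its start (chr7:126369509-126369707, 199 bp wide), with a pileup of 11, a fold of 9.45 and a −log10 q of 11.9. It ranked 292 among knockout-only regions, and 15.9% of 1960 regions of like strength lacked a wild-type peak. Wild-type peaks with a like background were listed from a pileup of 5 upward. The wild-type-only region lay 6.65 kb below the gene (chr7:126357058-126357181) with a pileup of 6, and 43.9% of regions of like strength lacked a DNMT3A-KO peak.

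Lat2 (chromosome 5, 134600103 to 134619783) held the deepest peaks of all 10 genes, inside the gene (chr5:134607142-134607492). The pileup there was 32 in DNMT3A-KO and 30 in wild type, the width 314 bp in DNMT3A-KO and 320 bp in wild type, and the summits lay 9 bp apart. This site was thus alike in depth, width and position in both libraries, with a pileup ratio of 1.07 (interval 0.628 to 1.82). A second shared region (chr5:134611813-134612027) had a pileup of 18 in DNMT3A-KO and 14 in wild type, with a width of 118 bp in DNMT3A-KO and 215 bp in wild type. A knockout-only region (chr5:134613876-134613975) followed 1.85 kb from the nearest wild-type peak, with a pileup of 10. Since the local background was high, wild-type peaks were listed there from a pileup of 8 upward, and 61.6% of regions of like strength were unshared.

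Lcp2 (chromosome 11, 34046928 to 34092281), the gene of the adaptor SLP-76, had the most regions, 7, of which 4 were shared; 1.40% of all genes had 7 or more. The shared region 15.2 kb upstream (chr11:34031361-34031698) had a pileup of 24 in DNMT3A-KO and 13 in wild type, the highest ratio among shared regions at 1.85 (interval 0.903 to 3.95). The DNMT3A-KO peak was the narrower, 210 bp against 338 bp in wild type, and the summits lay 2 bp apart. The shared region 24.5 kb beyond the far end (chr11:34116806-34117047) had a pileup of 20 in DNMT3A-KO and 15 in wild type. Inside the gene, the shared regions had pileups of 12 and 14 in DNMT3A-KO and of 11 and 12 in wild type (chr11:34061765-34062015 and chr11:34064175-34064378). The wild-type-only region just after the start (chr11:34047051-34047156) had a pileup of 9 and a −log10 q of 4.96, and wild-type regions of like strength were unshared in 49.7%. The 2 knockout-only regions, inside the gene (chr11:34058370-34058506) and 14973 bp beyond it (chr11:34107254-34107353), had pileups of 9 and 5, and 57.2% and 61.7% of regions of like strength were unshared.

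Taking the 15 shared regions as a group, the summit pileup was higher in DNMT3A-KO at 11 and in wild type at 4. Over all shared regions it was higher in DNMT3A-KO at 54.8% and in wild type at 32.8%, with ties at the rest. The median ratio of DNMT3A-KO to wild-type pileup was 1.14 here, with a range of 0.714 to 1.85, and 1.09 over all 12871 shared regions, of which the middle 80 percent lay between 0.733 and 1.63. Every one of the 15 intervals spanned 1. The median pileup was 12 in both genotypes at these shared regions, against 11 in DNMT3A-KO and 10 in wild type over all. The 9 knockout-only regions had pileups of 4 to 11 and the 6 wild-type-only regions of 4 to 12.

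**Figure D4:**
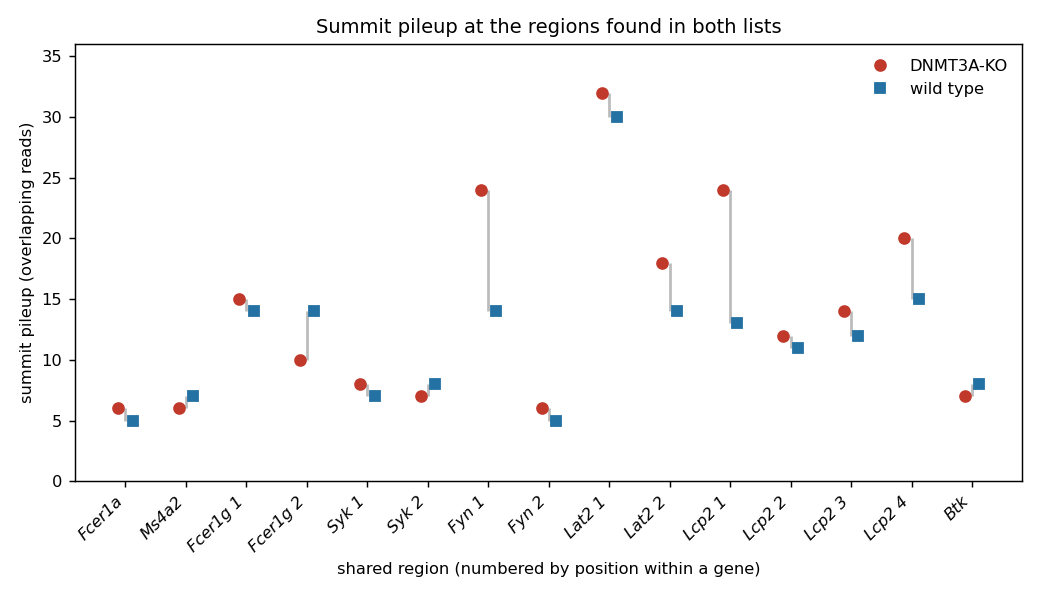
Summit pileup (y axis, overlapping reads) in DNMT3A-KO (red circles) and wild type (blue squares) at the 15 shared regions (x axis, numbered by position within a gene). The widest gaps are at the Fyn start (24 in DNMT3A-KO against 14 in wild type) and the upstream Lcp2 region (24 against 13); the inner Lat2 region is deepest in both.

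Peak width showed no common direction. The median width was 143 bp over 24 DNMT3A-KO peaks (range 100 to 314) and 124 bp over 21 wild-type peaks (range 100 to 338), beside 154 bp over the whole DNMT3A-KO list and 150 bp over the whole wild-type list. Within shared regions the order of the medians turned, with 145 bp in DNMT3A-KO and 172 bp in wild type. Over all shared regions the medians were 188 bp in DNMT3A-KO and 173 bp in wild type. These medians leave the pairing of the peaks aside. The DNMT3A-KO peak was the wider at 6 of 15 shared regions and the wild-type peak at 9, beside 56.8% for DNMT3A-KO and 40.7% for wild type over all shared regions. The largest differences went both ways, 99 bp wider in DNMT3A-KO at an inner Lcp2 region (204 bp in DNMT3A-KO against 105 bp in wild type) and the reverse at the upstream one (210 bp against 338 bp). Unshared peaks had a median width of 141 bp for knockout-only and 115 bp for wild-type-only regions, beside 114 bp and 108 bp over all such regions.

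Summit positions were compared at shared regions only, where the peaks overlap by definition, which limits how far apart the summits can lie. The summits of both lists lay 2 to 99 bp apart, with a median of 43 bp, beside 29 bp over all shared regions. They lay within 50 bp of each other at 10 of 15 shared regions (66.7%), beside 73.6% over all. Relative to the genes, 7 of 30 regions lay over or within 1 kb of a gene end (23.3%, interval 9.93 to 42.3), beside 37.0% over all assigned regions. Inside the gene but farther from its ends were 15 (50%), beside 40.1%, and outside the gene 8 (26.7%), beside 23.0%. Gene ends held 3 of the 15 shared regions (20%, interval 4.33 to 48.1), beside 45.3% of all assigned shared regions. They held 2 of the 9 knockout-only regions (22.2%, Lyn and Lat), beside 25.5% of all such regions. Of the 6 wild-type-only regions they held 2 (33.3%, Fcer1a and Lcp2), beside 28.6%. The unshared shares thus lay near the background.

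**Figure D5:**
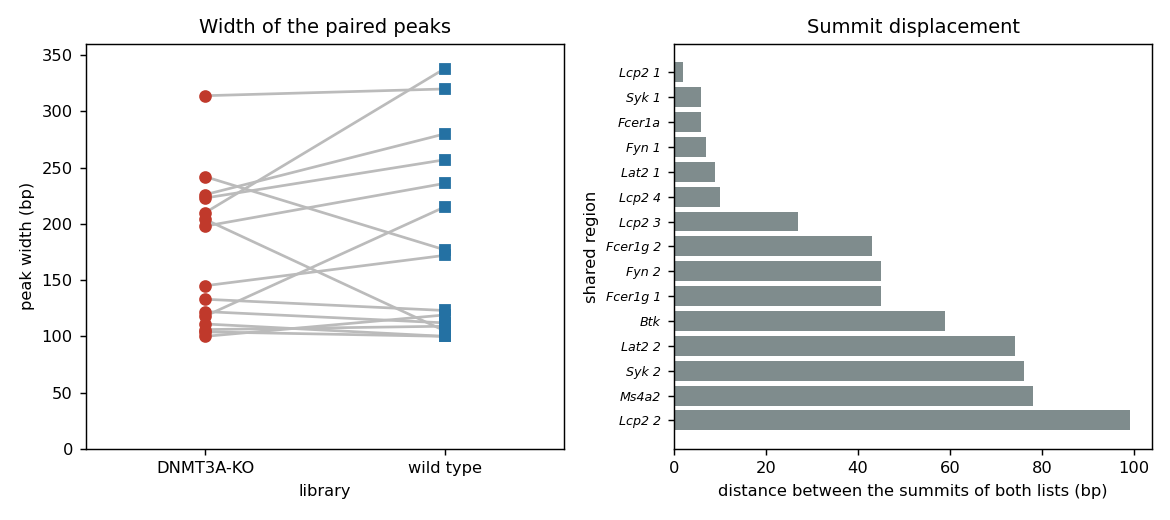
Left, width in bp (y axis) of the paired peaks of the 15 shared regions in DNMT3A-KO (red circles) and wild type (blue squares), joined by lines; right, distance in bp (x axis) between the summits of both lists at each shared region (y axis). Lines slope both ways, and summit distances run from 2 bp at Lcp2 to 99 bp at another Lcp2 region.

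The wider pathway was read from 5 lists with 73 genes and 258 regions. Their 115 unshared regions comprised 75 knockout-only and 40 wild-type-only regions, 65.2% knockout-only (interval 55.8 to 73.9), again near the 62.3% of all unshared regions. Other kinases and receptor partners had 10 in DNMT3A-KO alone and 6 in wild type alone, adaptors and exchange factors 19 and 10, lipid and calcium signalling genes 27 and 10, and inhibitors 19 and 10. Counts for single genes are given as knockout-only against wild-type-only. The Tec kinase gene had 2 against 0 and Src 2 against 0. Among adaptors, Grap2, which encodes the GADS protein that links LAT to SLP-76, had 3 against 0, and Gab2, the adaptor downstream of FYN, Rasgrp1 and Sh3bp2 had 2 against 0 each. Grb2 had 2 against 1, and Vav3, which encodes an exchange factor, 1 against 1. Among calcium genes, Itpr1, an inositol trisphosphate receptor gene, had 5 against 0 and Itpr2 4 against 2, while Itpr3 had 0 against 1. Prkcb, a protein kinase C gene, had 4 against 1. Among inhibitors, the ubiquitin ligase gene Cblb had 2 against 0, Cbl 1 against 0, the SHIP1 phosphatase gene Inpp5d 2 against 0, Ubash3b 4 against 4, and Csk, whose kinase restrains Src family kinases, 0 against 2.

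The 7 other Fc receptor genes had 3 regions in both lists, 0 in DNMT3A-KO alone and 4 in wild type alone. The knockout-only share of their unshared regions was 0% (interval 0 to 60.2), beside 62.3% over all unshared regions, and rests on 4 regions only. The 4 were assigned to Fcgr1, Fcgr3, Fcgr4 and Fcrl1, 1 each (Fcrl1 was chosen after its value was seen). Those of Fcgr1 and Fcgr4 lay outside the gene, at 4.75 kb and 20.55 kb. Both were weak, with a pileup of 6 and a −log10 q of 5.30 and 5.43. How often regions of like strength were unshared is not given for these 4. The strongest, inside Fcgr3 (chr1:171059360-171059490), had a pileup of 11 and a −log10 q of 11.2.

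The labelled cell type was checked against marker genes by the presence of regions. Beside the 49.6% of all genes with a region in DNMT3A-KO and 46.4% in wild type, the 12 mast cell genes, which include Fcer1a and Ms4a2, had one at 12 in DNMT3A-KO and 11 in wild type, where Hdc, the histamine synthesis gene, had none. Neutrophil genes had one at 2 of 6 in DNMT3A-KO (S100a8 and S100a9) and 2 of 6 in wild type (S100a9 and Csf3r), with none at Elane, Mpo and Ly6g. Macrophage genes had one at 2 of 5 in DNMT3A-KO (Csf1r and Marco) and 2 of 5 in wild type (Adgre1 and Marco), with none at Cd68 and C1qa. T and NK cell genes had one at 3 of 6 in either (Cd3e, Cd3d and Tcf7), with none at Cd4, Cd8a and Ncr1. Basophil genes had one at 2 of 4 in DNMT3A-KO (Itga2 and Cd200r3) and 3 of 4 in wild type (these and Prss34). Erythroid and megakaryocyte genes had one at 5 of 6 in DNMT3A-KO (Gata1, Klf1, Pf4, Itga2b and Hbb-bt) and 4 of 6 in wild type (these without Klf1). B cell genes had one at 1 of 5 in DNMT3A-KO (Pax5) and 0 of 5 in wild type, with none at Cd79a, Cd79b and Ms4a1. A region thus lay at genes of each of the other cell types in at least 1 list, several of these shares are near that of all genes, and the counts do not by themselves identify the cells. Several genes described here, among them Lyn, Syk, Btk, Fcer1g and Lcp2, are also used by other blood cells, and the part of such cells in these results was not tested. The lists give no total read count. The median summit pileup was 9 in both libraries, and the lowest local background was 0.0599 in DNMT3A-KO and 0.0644 in wild type.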

How the data were processed

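ATAC-seq libraries of 1 DNMT3A-KO and 1 wild-type mast cell culture were sequenced as 50 bp single reads, per the labels' protocols. The build mm10 (GRCm38) and the tools MACS2, Bowtie2 and Trimmomatic are named in the submitters' processing notes; their versions and settings, and whether reads were moved to the Tn5 cut, which would shift peak edges by a few bases, is information not given in the sources used here. The authors deposited 1 peak list for each library, which holds a whole-number score, the fold enrichment as a linear ratio, and p-values and q-values as −log10; in 100% of peaks that score equalled 10 times the −log10 q, cut to a whole number. The deposited fold, read as (pileup + 1)/(background + 1), and −log10 p, read as a Poisson p, gave a whole-number summit pileup in 100% of peaks (tolerance 0.001).

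Regions were joined and assigned in pandas 2.3.3 and NumPy 2.4.6 (Python 3.11.15), with intervals from SciPy 1.17.1. Genes and promoter windows came from RefSeq tables of GRCm38.p6, the assembly behind mm10. No genome sequence beyond the promoter windows was used. No exon annotation was at hand, so exons and introns are not resolved. Where a region was equally near to several genes it counted for each. Intervals are exact (Clopper-Pearson, 95%); those of a pileup ratio are exact conditional binomial. No test between genotypes was made, each having 1 library. The members and lists were chosen with earlier results of these data known. Genes named are the 10 members and, from each wider list, up to 3 with the most uneven split of unshared regions, and any with an unshared region whose −log10 q reached 10; some genes these rules name are not reported here. The steps were checked on simulated data. Alternatives were limits on −log10 q of 5 or 10, equal list lengths, other overlap rules, other gene assignments, gene ends of 2.5 kb and another scale for pileups.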

Additional observations from a re-analysis of the deposited data

How the results depend on the processing

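No paired analysis was possible because there was only 1 culture of either genotype. Keeping only peaks with a −log10 q of 10 or more, which leaves fewer peaks, the genes had 5 shared, 4 knockout-only and 1 wild-type-only region, 6 genes had a region in DNMT3A-KO and 4 in wild type, the median width was 210 bp in DNMT3A-KO and 268.5 bp in wild type, and the median pileup ratio, divided by that of all shared regions, was 1.23. That scaled ratio was 1.05 as reported. It was 0.991 with genes of all types, which turns its direction, and 1.23 when scaled by the lowest local backgrounds; the cause was not tested. Across all alternatives, 104 values of the group or the wider pathway lists stayed within their interval or within 1.5 times the reported count. Another 9 moved and 1 turned direction. The knockout-only share of the wider lists is counted among the 104, and it stayed under each alternative that gave it. Staying is a loose criterion, since the intervals are wide. For the group, the knockout-only share of unshared regions was 80% at the limit of 10, and this lay within its interval of 32.3 to 83.7. At single genes the balance of unshared regions stayed in 82 cases, moved in 18 and changed sign in 0. At the stricter limit the Lat start-site region was kept, and the wild-type-only region at the Fcer1a start (−log10 q 9.67) was lost. Of the unshared regions at that limit, only those at Lyn and Lat were unshared in the full lists. Those at Lat2, Lcp2 and the Fcer1g start were shared regions whose other peak fell below the limit. Leaving out ties and a distance of 50 kb could not change the counts at single genes. No region of these genes was tied, and the farthest lay 28.7 kb from its gene. Both settings are included in the tallies above. The median pileup of all unshared regions was 6 in either list, and the effect of sequencing depth on these counts was not tested.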

Other observations

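Within 10 kb of the genes lay 4 regions that the nearest-gene rule gives to a neighbour. A knockout-only region (chr19:11629819-11629926, pileup 6) lay 6.03 kb upstream of Ms4a2 and was assigned to Ms4a3. A shared region 1.91 kb from Btk (chrX:134585537-134585728), assigned to Rpl36a, had a pileup of 11 in DNMT3A-KO and 14 in wild type. A shared region 7.70 kb from Lat (chr7:126377409-126377587), assigned to Spns1, had 13 in DNMT3A-KO and 9 in wild type. A shared region 6.78 kb from Fcer1g (chr1:171222444-171222792), assigned to Tomm40l and Apoa2, had 26 in DNMT3A-KO and 20 in wild type.

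Some regions of these genes also overlapped genes of other types. The outer Lyn regions lay in or near 2210414B05Rik and Gm42250, and the Lyn region over the lower gene end also overlapped Gm42250. The Syk region below the gene lay in Gm2848, and 4930469K13Rik overlapped 5 of the 7 Lcp2 regions. Gm31616 overlapped the Fyn start region. The wild-type-only Lat region lay 1020 bp from LOC115486475. When genes of all types competed for regions, Lat had no wild-type region, and 8 of the 10 genes had one.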
